A study of Mus musculus with 8 samples.

Results

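The genes described here are 42 cyclins, kinases, checkpoint proteins and spindle or kinetochore proteins that act between G2 and the end of mitosis. A gene was included where the gene name column of the scanner files equalled its symbol on a probe that was no control spot. All 42 were found, on 60 probes, among 31784 gene names on the arrays. Of these, 41 passed the detection filter and were tested with 16153 genes in all. The gene not tested was Aurkb, whose only probe the scanner software marked as well above background on none of them (0 of 8 arrays).

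C10 is a derivative of the mouse pre-B line HAFTL that carries an inducible form of C/EBPα, a myeloid transcription factor whose activity turns B-lineage cells towards macrophages. All cells carried a short hairpin RNA, either a control hairpin or one against Tet2, and were grown under puromycin. The 4 groups were the control line at 0 h, the control line after 24 h of induction, and the line labelled Tet2 knockdown at the same times. Induction combined 100 nM estradiol with IL-3 and M-CSF, each at 10 ng/ml, so the effects of the 3 agents cannot be told apart. Each group had 2 arrays, which the series describes as technical duplicates of 1 treatment and time. A p-value here thus reflects only how much duplicate arrays vary, without the variation from culture to culture, and the number of arrays limits the precision.

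Entry into mitosis is driven by CDK1 bound to cyclin A or cyclin B, which CDC25 phosphatases switch on and the kinase WEE1 holds back. Polo and Aurora kinases then build the spindle, and the spindle checkpoint holds the anaphase promoting complex in check until every kinetochore is attached. That complex next marks cyclin B and securin for destruction, which frees separase to part the sister chromatids. Many of these genes are transcribed in G2 and M through a promoter element called the CHR (cell cycle genes homology region), bound by the MuvB complex with either B-MYB and FOXM1 or the repressive DREAM proteins, often next to CCAAT boxes bound by NF-Y.

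Promoters of 8 members are shown first, to set those of 6 members called lower beside those of the 2 that were not. They were taken from RefSeq annotation of build GRCm38.p6, which held 33 of the 42 members, and ran from 250 bases before to 50 bases after the start site. The CHR was searched as TTTGAA or TTCGAA, the CCAAT box as CCAAT and the E2F motif as TTTGGCGC, TTTGCCGC, TTTCGCGC or TTTCCCGC, each on both strands. Only 1 pair of matches of different motifs overlapped among these members. A CHR match was present in 22 of 33 members (66.7%), against 21.7% of all 27025 genes in the promoter table and 17.1% of the 9742 that were also tested. CCAAT boxes occurred in 24 of 33 (72.7%), against 41.1% of all genes and 43.2% of those tested. Both elements occurred in 20 (60.6%), against 9.65% of all genes. The E2F motif matched 2 members, Cdk1 and Cdc25a (6.06%), against 2.6% of all genes and 4.54% of those tested, a share near that of the members. These matches are descriptions of letters, not evidence of binding.

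The CHR matches of 12 members began before the start site and those of 10 members began only at or after it. Within 50 bases on either side of the start, 21 of 33 members (63.6%) had a match, against 6.12% of all genes. In the 250 bases before the start alone the shares were 36.4% of members and 19.6% of all genes. The following stretches are the 120 bases before the start site, 5′ to 3′ on the gene's strand, with CHR and CCAAT matches in capitals (ATTGG is the CCAAT box and TTCAAA the CHR read on the opposite strand). Each of the first 6 holds a CHR and a CCAAT box, which is not so for all members called lower. The stretch of Bub3 lies before the first of its 2 annotated starts. The first 6 belong to members called lower, and the last 2 to Bub3 and Fzr1, which were not called. They lie at chr10:69352913-69353032 (minus strand) for Cdk1, chr17:24251410-24251529 (minus) for Ccnf, chr11:99024190-99024309 (minus) for Top2a, chr4:118437344-118437463 (minus) for Cdc20, chr2:164769809-164769928 (plus) for Ube2c, chr15:102296173-102296292 (plus) for Espl1, chr7:131560250-131560369 (plus) for Bub3 and chr10:81378371-81378490 (minus) for Fzr1.
Cdk1: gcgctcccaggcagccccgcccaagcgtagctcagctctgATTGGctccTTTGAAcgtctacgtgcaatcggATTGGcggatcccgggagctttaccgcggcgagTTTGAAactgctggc
Ccnf: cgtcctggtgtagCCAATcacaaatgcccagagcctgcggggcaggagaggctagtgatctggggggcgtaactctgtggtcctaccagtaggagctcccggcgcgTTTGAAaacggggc
Top2a: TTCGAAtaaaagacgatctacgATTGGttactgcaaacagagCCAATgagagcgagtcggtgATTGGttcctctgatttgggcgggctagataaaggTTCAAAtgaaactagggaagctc
Cdc20: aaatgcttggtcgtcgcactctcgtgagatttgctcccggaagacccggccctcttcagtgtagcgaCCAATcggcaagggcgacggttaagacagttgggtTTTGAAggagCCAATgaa
Ube2c: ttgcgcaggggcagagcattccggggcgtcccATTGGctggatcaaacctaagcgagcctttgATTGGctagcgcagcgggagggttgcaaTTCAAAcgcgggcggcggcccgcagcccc
Espl1: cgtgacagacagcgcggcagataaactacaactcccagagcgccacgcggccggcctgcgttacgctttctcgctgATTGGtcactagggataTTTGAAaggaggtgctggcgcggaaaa
Bub3: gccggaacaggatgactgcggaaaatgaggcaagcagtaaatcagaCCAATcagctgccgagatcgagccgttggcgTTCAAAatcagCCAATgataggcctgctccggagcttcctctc
Fzr1: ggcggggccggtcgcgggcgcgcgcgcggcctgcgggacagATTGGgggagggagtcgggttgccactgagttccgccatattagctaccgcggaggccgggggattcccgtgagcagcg

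Bub3 carried a CHR 43 bases before the first of its 2 annotated starts and CCAAT boxes on either side of it, both elements found in 20 of the 33 members. Counted from the second start, the CHR began at -167 and the CCAAT boxes at -198 and -156. The 120 bases before that second start held no match. Fzr1 had 1 CCAAT box and no CHR match in the window. No match of any of the 3 motifs was found in 7 members, namely Plk4, Melk, Mad2l1, Birc5, Nuf2, Pttg1 and Nusap1, all of which were called lower on induction. In Ccnb2, Cdc25b, Aurka, Plk1, Bub1, Ttk, Cdca8 and Spc25 the CHR match nearest to the start lay 5 to 33 bases after it, with CCAAT boxes before the start.

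**Figure D1:**
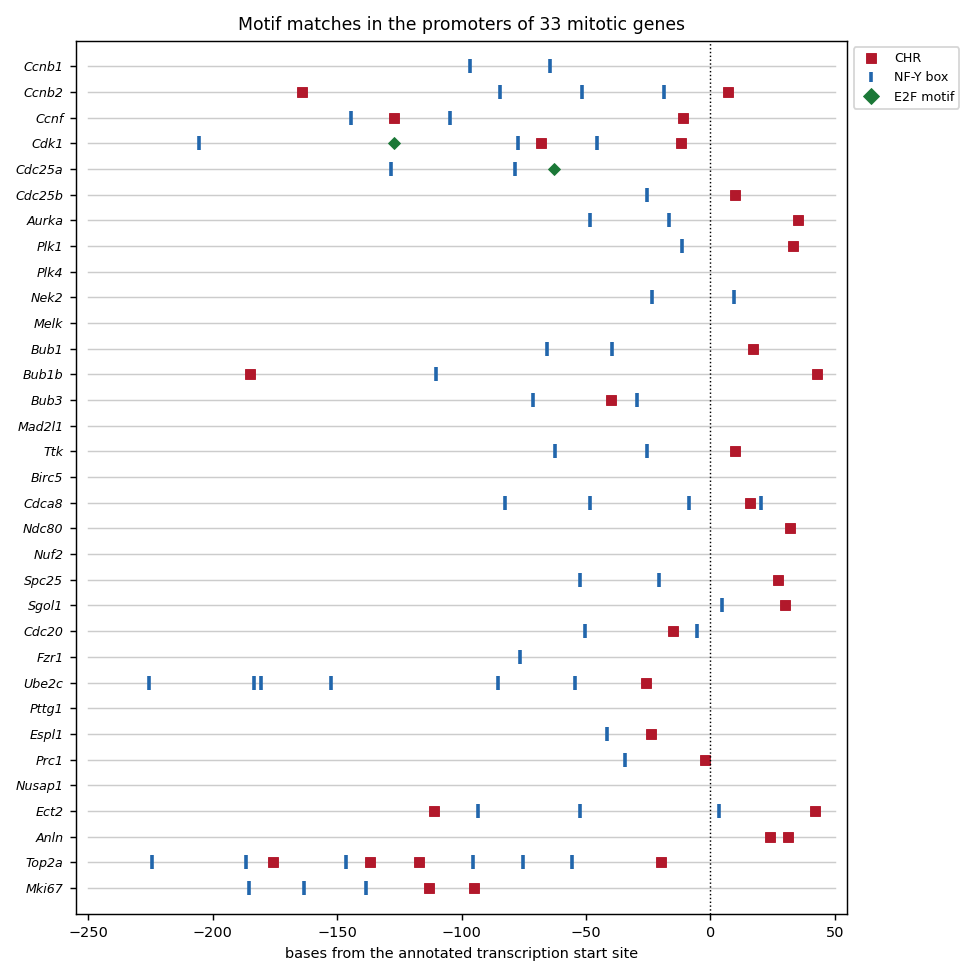
Positions of motif matches (x axis, bases from the annotated start site, first annotated start of each gene) in the 33 members with a promoter in the table (y axis). Squares mark CHR matches, bars CCAAT boxes (NF-Y boxes) and diamonds E2F motifs, and most squares lie within 50 bases of the start.

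Levels are given as log2 of the processed spot intensity minus log2 of the array's 75th percentile, so a level of 0 is that percentile, which ranged from 723 to 1441 intensity units. Between 47.4% and 55.6% of spots were well above background on each array, and the correlation of duplicates over genes was between 0.992 and 0.994. Of 10 pre-B marker genes, all were above background in every group, and 6 were called lower in control cells and 5 in the other line, among them Rag1 (log2 change -4.33 and -4.68), Rag2 (-5.01 and -4.92) and Dntt (-4.47 and -4.78). Of 8 macrophage markers, 6 were above background at 0 h and 7 at 24 h, and 6 of the 7 tested were called higher in each line, while 0 or 1 of 5 erythroid, 0 to 2 of 4 stromal and 3 of 6 T cell markers were above background. Of these last 3 lists, Pdgfrb, a stromal receptor gene, was called higher in both lines (at least 9.89-fold and at least 5.01-fold, below background at 0 h), as was Cd4 (1.34 and 1.18 on the log2 scale), and 0 were called lower. What part such markers have in the results was not tested. Tet2 was not lower in the line labelled knockdown (log2 difference -0.11 ± 0.10 SE, adjusted p = 0.54 at 0 h, and 0.01 ± 0.10, adjusted p = 0.97 at 24 h), so every comparison of the lines is one of labels.

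The first comparison set 24 h against 0 h in control cells to ask how these genes responded. Of 41 members tested, 39 fell and 0 rose by the criterion used throughout, an adjusted p under 0.05 (limma, Benjamini-Hochberg over all genes) with at least a 2-fold change. Over all genes tested, 13.1% were called lower and 14.2% higher. In the line labelled knockdown 39 fell and 0 rose as well, where 15.4% of all genes were called lower and 16.7% higher. The member median was -3.88 in control cells and -4.24 in the line labelled knockdown, against 0.00 and 0.14 for all genes. On each slide taken alone, all 41 members were below 0 in both inductions. In RNA of whole cultures, fewer dividing cells and less transcript per dividing cell cannot be told apart.

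Members with several probes gave the same picture. In 13 members more than 1 probe passed the filter (29 probes), and 54 of the 57 kept probes of all members were called lower in each induction and 0 higher. A subset of 23 probes, from 10 members with more than 1 such probe, was above background on at least 1 array in each of the 4 groups. Among them, the probes of 1 gene differed by up to 1.04 in the control induction and 0.76 in the other. All kept probes had values below 0 in both inductions.

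**Figure D2:**
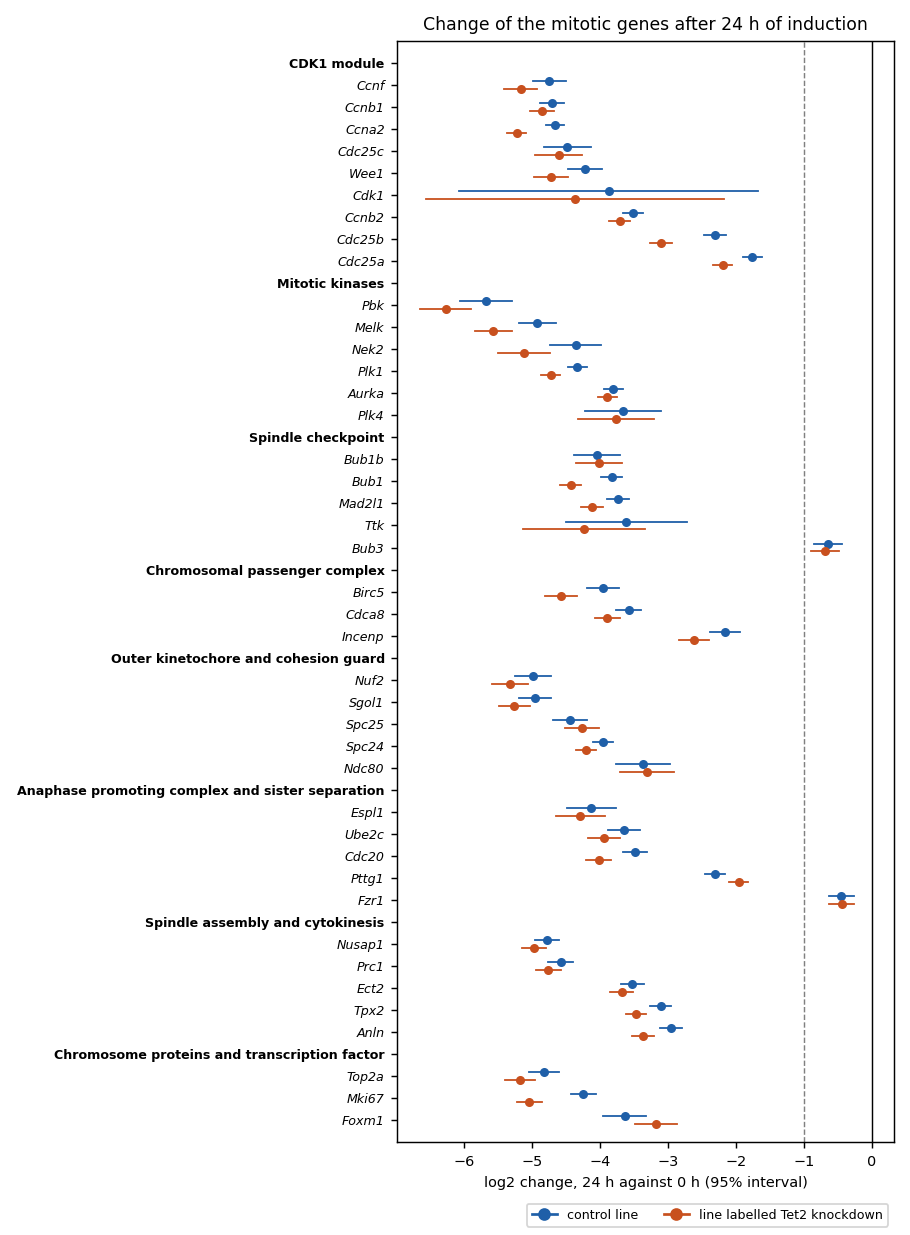
Log2 change from 0 h to 24 h (x axis, with 95% intervals) of the 41 members tested (y axis, by role), in the control line and in the line labelled Tet2 knockdown. The dashed line marks a 2-fold fall: 39 members lie beyond it in both lines, and Bub3 and Fzr1 lie between it and 0. The points of Cdc25c, Plk4 and Ttk are fitted values with 24 h arrays below background. In the line labelled knockdown, Cdc25c, Nek2 and Nuf2 had 1 of 2 arrays at 24 h well above background.

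All 9 tested genes of the CDK1 module fell in both lines, with medians of -4.22 and -4.61. Ccna2, the cyclin of S phase and early mitosis, stood at 4.22 and 4.15 in control arrays at 0 h, at -0.46 and -0.50 at 24 h, and in the line labelled knockdown at 4.24 on both 0 h arrays, then at -1 and -0.98. All arrays at 24 h were below all arrays at 0 h, and those of the line labelled knockdown were the lowest. The fall was 25.3-fold in control cells (log2 -4.66 ± 0.06 SE, adjusted p = 8.3e-07) and 37.5-fold in the other line (-5.23 ± 0.06, adjusted p = 5.2e-07).

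Ccnb1 encodes cyclin B1, the main mitotic partner of CDK1. Its levels were 4.20 and 4.09 (control, 0 h), -0.59 and -0.53 (control, 24 h), 4.22 and 4.15 (labelled knockdown, 0 h) and -0.62 and -0.72 (labelled knockdown, 24 h). The lines overlapped at 0 h and were close at 24 h. Ccnb1 fell 26.1-fold in control cells and 28.9-fold in the other line. Ccnf, which encodes the F-box protein cyclin F, had the largest control fall of those in the module measured at both times, close to that of Ccnb1. This order depended on the processing: with normexp background correction the control change was -4.33 for Ccnf and -4.60 for Ccnb1. Ccnf went from 2.60 and 2.56 to -2.25 and -2.09 in control cells (26.9-fold). In the line labelled knockdown it went from 2.64 and 2.71 to -2.60 and -2.39 (35.9-fold). Ccnb2, the other B-type cyclin, fell 11.5-fold and 13.1-fold.

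The CDC25 phosphatases, which remove the inhibitory phosphates from CDK1, did not fall alike. Cdc25a, active from G1/S onwards, stood at 2.96 and 2.91 in control arrays at 0 h and at 1.17 and 1.18 at 24 h, and in the line labelled knockdown at 3.37 and 3.32, then 1.16 and 1.14. Its fall was 3.38-fold and 4.59-fold. The smallest falls in this module were those of Cdc25a and Cdc25b.

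Cdc25b, a starter of mitosis, was at 1.91 and 1.80 and then -0.44 and -0.46 in control cells, and at 2.01 and 1.96 and then -1.09 and -1.14 in the line labelled knockdown. The 24 h arrays of the latter were below every other array. The falls were 4.97-fold and 8.61-fold. Cdc25c, the G2/M phosphatase, was well above background on all 0 h arrays. At 24 h it was so on 0 control arrays and on 1 of 2 arrays labelled knockdown. Its control fall is thus a bound, at least 19.8-fold on the level scale used here (adjusted p = 4.6e-06). With normexp background correction its fitted control change was -3.11, smaller than the control bound of 4.306 on the log2 scale. A bound compares the measured group with the lowest signal well above background on each dim array, or with the probe's own signal where that is higher. Wee1, the kinase that keeps CDK1 off, fell along with its substrate, 18.6-fold and 26.4-fold.

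Cdk1 itself had the widest error of the members. Its levels were -0.05 and 1.35, then -4.04 and -2.41 in control cells, and 0.25 and 1.61, then -4.16 and -2.73 in the line labelled knockdown. The array on slide 2 was above that on slide 1 in every group, and the 0 h arrays were above all 24 h arrays. The falls were -3.88 ± 0.88 SE (95% interval -6.07 to -1.68, adjusted p = 0.011) and -4.38 ± 0.88 (adjusted p = 0.0061). With the slide as a block the adjusted p was 1e-05 and 6.9e-06. The control call was lost without control array 2 at 0 h (-3.18, adjusted p = 0.059) and without control array 1 at 24 h (-3.06, adjusted p = 0.053). Only 88 of 16153 genes differed at least 2-fold between slides in all 4 groups, and Cdk1 was the 1 member among them.

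The sequence of this probe stands out. Its 60 bases (chr10:68801072-68801131 on mm9, minus strand) are 81.7% A or T, a share reached by 0.0148% of kept probes. An equally rich probe shifted by 19 bases (chr10:68801053-68801112) was above background on 0 arrays. The remaining Cdk1 probe, 55% A or T (chr10:68799513-68799572), was above background on the 4 arrays at 0 h and on 0 at 24 h. The Aurkb probe (chr11:68865105-68865164 on mm9, plus strand) is 80% A or T, a share reached by 0.0492% of kept probes. Whether base composition bears on these signals was not tested. The first 30 bases of the probes, as deposited, are shown to compare their composition.
Cdk1, probe used: ttcttaatttcctacgtataacttaattaa
Cdk1, shifted probe: aacttaattaacatgtaaatattattccat
Cdk1, remaining probe: atacactaaaaatttgggtagccaggaggt
Aurkb, only probe: ttcagaaaaattatgaagaacaacatttta

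All 6 tested mitotic kinases outside the CDK1 module fell, with medians of -4.35 and -4.92. Pbk, a MAPKK-like kinase of dividing cells, had the largest fall among members measured at both times. It stood at 2.54 and 2.59 in control arrays at 0 h, at -2.97 and -3.25 at 24 h, and in the line labelled knockdown at 2.70 and 2.63, then -3.42 and -3.80. The times did not overlap in either line. The fall was 51.2-fold (log2 -5.68 ± 0.15 SE, adjusted p = 3e-06) in control cells and 77.4-fold (-6.27 ± 0.15, adjusted p = 1.9e-06) in the other line.

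Plk1, the polo kinase needed for spindle assembly and mitotic exit, stood at 4.34 and 4.28, then at -0.03 on both control arrays at 24 h. In the line labelled knockdown it was at 4.48 and 4.54 and then at -0.23 and -0.20, outside the control range at both times. It fell 20.2-fold and 26.5-fold. Melk, a kinase of proliferating progenitors, fell from 1.53 and 1.43 to -3.52 and -3.35 in control cells (30.3-fold) and from 1.78 and 1.80 to -3.65 and -3.91 in the line labelled knockdown (47.7-fold). The lines were apart at both times. Aurka, which matures centrosomes, fell 14.0-fold and 14.8-fold.

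Nek2, a centrosome kinase, fell 20.5-fold and 34.8-fold on the level scale used here, the latter with 1 of 2 arrays at 24 h well above background. Plk4, which starts centriole duplication, was below background on all 24 h arrays and fell at least 5.48-fold and at least 7.62-fold on the level scale used here. With normexp its fitted control change was -1.87, smaller than the control bound of 2.455 on the log2 scale. Its measured log2 levels at 0 h were -2.21 and -2.25 in control cells and -2.18 and -2.03 in the other line.

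Of 5 spindle checkpoint genes, 4 fell in both lines (medians -3.74 and -4.12) and Bub3 was not called. Bub1, the kinase that recruits checkpoint proteins to kinetochores, stood at 1.30 and 1.21, then -2.55 and -2.60 in control cells, and at 1.30 and 1.34, then -3.09 and -3.14 in the line labelled knockdown. The lines met at 0 h and were apart at 24 h. Bub1 fell 14.2-fold and 21.6-fold. Bub1b, which encodes the checkpoint inhibitor BUBR1, went from 2.11 and 2.37 to -1.74 and -1.89 in control cells (16.6-fold) and from 2.34 and 2.42 to -1.50 and -1.78 in the line labelled knockdown (16.2-fold). Its lines overlapped at both times. Mad2l1, the inhibitor of CDC20, went from 3.12 and 3.05 to -0.65 and -0.66 in control cells (13.4-fold) and from 3.39 and 3.36 to -0.80 and -0.69 in the line labelled knockdown (17.4-fold). Ttk, the kinase at the top of the checkpoint, was below background on all 24 h arrays and fell at least 3.22-fold and at least 4.99-fold on the level scale used here. With normexp its fitted control change was -1.45, smaller than the control bound of 1.689 on the log2 scale.

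Bub3, the adaptor that docks BUB1 and BUBR1 on kinetochores and that also binds splicing proteins, was lower by less than the minimum. Its levels were 4.77 and 4.61, then 4.09 and 4.01 in control cells, and 4.77 and 4.71, then 4.10 and 4.01 in the line labelled knockdown. Both times were separate, yet the difference was 1.56-fold (log2 -0.64 ± 0.08 SE, 95% interval -0.85 to -0.44, adjusted p = 0.00092) and 1.61-fold (-0.69 ± 0.08, adjusted p = 0.00062), under the 2-fold minimum. The probe lies at chr7:138712221-138714437 on mm9, as the files give it.

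**Figure D3:**
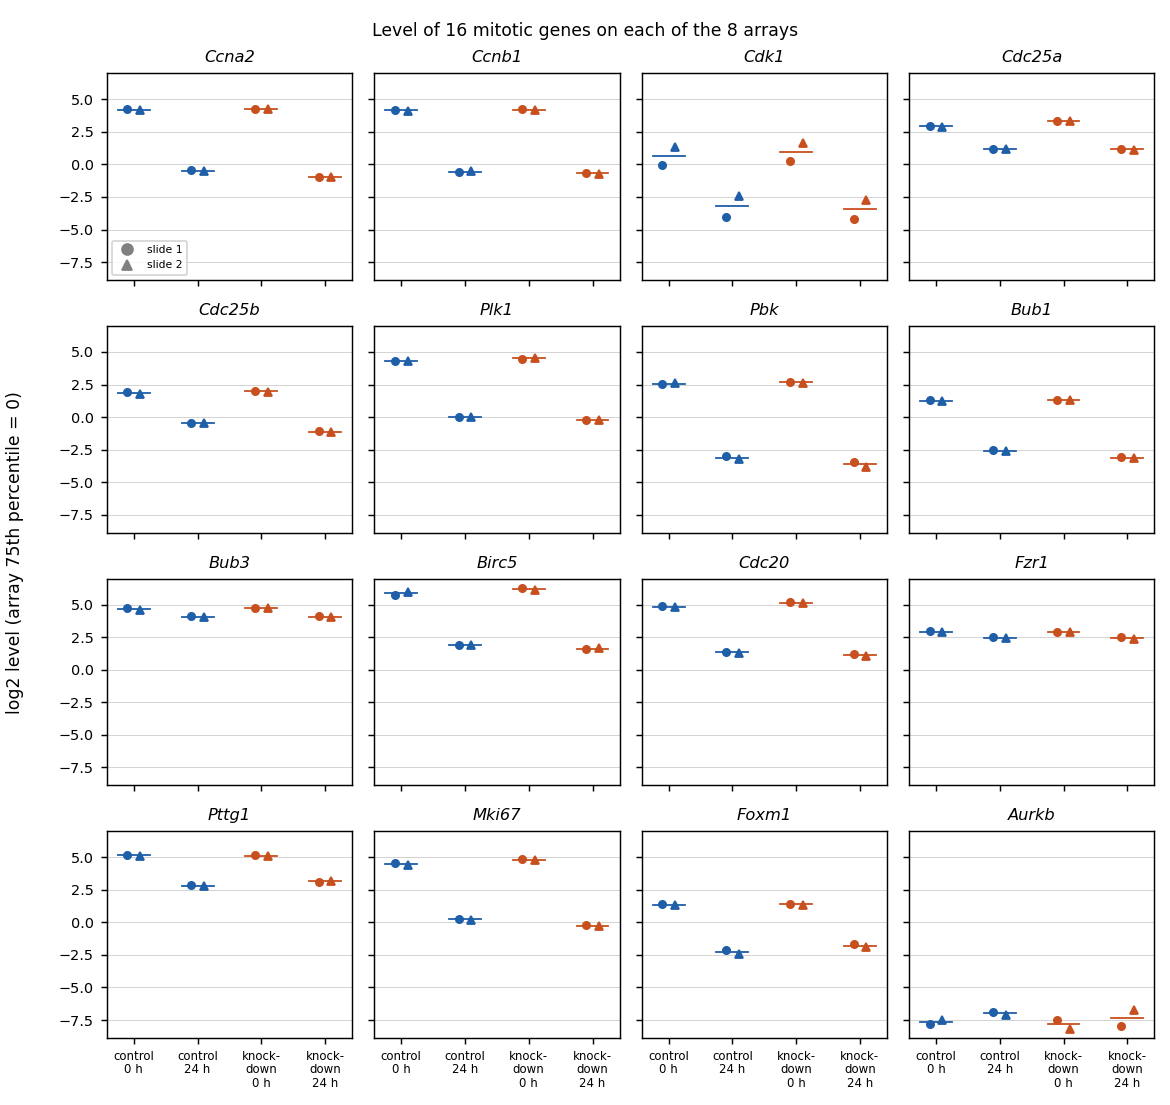
Log2 level (y axis, relative to the array's 75th percentile) of 16 members on each of the 8 arrays (x axis, 4 groups), with circles for slide 1, triangles for slide 2 and a line at the mean of the 2 arrays. The times are far apart for most genes, close for Bub3 and Fzr1, split by slide for Cdk1, and Aurkb lies below background on all arrays.

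The chromosomal passenger complex corrects faulty attachments and steers cytokinesis. Its 3 tested subunits fell in both lines (medians -3.58 and -3.89), while its kinase Aurkb gave no value above background. Birc5, or survivin, stood at 5.77 and 5.95, then 1.92 and 1.90 in control cells, and at 6.28 and 6.11, then 1.58 and 1.66 in the line labelled knockdown. At 0 h the arrays labelled knockdown were the higher, and at 24 h the lower. Birc5 fell 15.5-fold and 23.8-fold, and Cdca8, or borealin, 12-fold and 14.8-fold. Incenp, the scaffold, fell least, from 4.99 and 4.85 to 2.83 and 2.71 in control cells (4.46-fold) and from 5.32 and 5.16 to 2.64 and 2.62 in the other line (6.13-fold).

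The 4 subunits of the NDC80 complex, which holds microtubules at the outer kinetochore, and the cohesin guard Sgol1 (now named Sgo1) all fell, with medians of -4.44 and -4.27. On the level scale used here Nuf2 fell most of these, close to Sgol1. Nuf2 went from 1.06 and 0.90 to -4.10 and -3.92 in control cells (31.8-fold). In the line labelled knockdown it went from 0.98 and 1.01 to -4.23 and -4.43 (40.2-fold), where 1 of 2 arrays was above background. With normexp the control change was -4.08 for Nuf2, -4.70 for Sgol1 and -4.38 for Spc25. The second kept Nuf2 probe, below background on all 24 h arrays, gave a fitted control change of -4.295. Ndc80 fell least, from 1.32 and 1.28 to -2.23 and -1.90 in control cells (10.3-fold) and from 1.57 and 1.35 to -2 and -1.70 in the other line (9.94-fold). For both genes the times were far apart. Spc24 fell from 1.67 and 1.76 to -2.23 and -2.25 in control cells (15.6-fold) and from 1.99 and 1.98 to -2.20 and -2.25 in the other line (18.5-fold). Spc25 fell from 4.50 and 4.37 to 0.01 and -0.01 (21.7-fold) and from 4.73 and 4.47 to 0.34 and 0.32 (19.3-fold). The lines differed at 0 h for Spc24 and met at 24 h. Sgol1 fell 31.1-fold and 38.4-fold. The subunits of 1 complex thus differed in size of change, with intervals of Nuf2 (-5.26 to -4.72) and Ndc80 (-3.76 to -2.97) that did not meet in control cells.

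Of the 5 genes that open and close anaphase, 4 fell (medians -3.49 and -3.94). Cdc20, the activator of the anaphase promoting complex at the start of anaphase, stood at 4.86 and 4.80, then 1.36 and 1.32 in control cells, and at 5.20 and 5.11, then 1.19 and 1.07 in the line labelled knockdown. It fell 11.2-fold and 16.3-fold. Ube2c, the E2 enzyme of the complex, fell 12.5-fold and 15.4-fold, and Espl1, which encodes separase, went from 1.49 and 1.23 to -2.69 and -2.85 in control cells (17.5-fold) and from 1.63 and 1.53 to -2.56 and -2.87 in the other line (19.6-fold).

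Fzr1 encodes CDH1, the activator that takes over from CDC20 in late mitosis and keeps the complex active in G1. Its levels were 2.94 and 2.90, then 2.49 and 2.45 in control cells, and 2.86 and 2.93, then 2.53 and 2.37 in the line labelled knockdown. The arrays at 24 h were below those at 0 h, by 1.37-fold (log2 -0.45 ± 0.07 SE, 95% interval -0.64 to -0.27, adjusted p = 0.0028) and 1.36-fold (adjusted p = 0.0027), so Fzr1 was not called. Its second probe gave -0.52 and -0.20. Pttg1, or securin, the guard of separase, stood at 5.17 and 5.10, then 2.83 and 2.81 in control cells, and at 5.14 and 5.11, then 3.12 and 3.20 in the line labelled knockdown. It fell 4.97-fold and 3.90-fold.

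All 5 genes of spindle assembly and cytokinesis fell (medians -3.52 and -3.68). Nusap1, which bundles microtubules near chromosomes, fell from 2.58 and 2.57 to -2.26 and -2.15 in control cells (27.4-fold) and from 2.29 and 2.36 to -2.60 and -2.70 in the line labelled knockdown (31.4-fold). Prc1, the bundler of the central spindle, fell 23.9-fold and 27.1-fold. In both genes all 24 h arrays were far below those at 0 h. Tpx2, the activator of Aurora A, fell from 2.46 and 2.38 to -0.64 and -0.73 in control cells (8.60-fold) and from 2.60 and 2.61 to -0.86 and -0.87 in the other line (11.1-fold). Ect2, the exchange factor that turns on RhoA for cytokinesis, fell from 1.78 and 1.72 to -1.77 and -1.78 (11.5-fold) and from 2 and 2.10 to -1.58 and -1.68 (12.8-fold). Anln, or anillin, fell least, from 2.80 and 2.69 to -0.23 and -0.20 (7.78-fold) and from 3.07 on both arrays to -0.25 and -0.33 (10.3-fold). At 0 h the arrays labelled knockdown were above the control arrays in all 3.

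Top2a, the topoisomerase that untangles sister chromatids, fell from 3.15 and 3.01 to -1.69 and -1.79 in control cells (28.3-fold) and from 3.13 and 3.01 to -2.05 and -2.17 in the line labelled knockdown (36.2-fold). The lines overlapped at 0 h. Mki67, which coats mitotic chromosomes and is the usual marker of dividing cells, stood at 4.52 and 4.43, then 0.29 and 0.17 in control cells, and at 4.83 and 4.76, then -0.23 and -0.27 in the line labelled knockdown. It fell 19.0-fold and 32.9-fold. Foxm1, the transcription factor that works with B-MYB at these promoters, stood at 1.38 and 1.31, then -2.15 and -2.44 in control cells, and at 1.42 and 1.34, then -1.69 and -1.91 in the line labelled knockdown. It fell 12.5-fold and 9.06-fold.

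The wider pathway was read from lists of genes that are no members. Among 12 MuvB, B-MYB and DREAM genes, 6 fell in control cells and 7 in the line labelled knockdown, 0 rose, and the medians were -1.26 and -1.37. Mybl2, which encodes B-MYB, fell (log2 change -4.40 and -4.94), as did the pocket protein gene Rbl1 (-3.16 and -3.68). Of the MuvB core, Lin9 (-1.88 and -2.03) and Lin54 (-1.58 and -1.67) fell. Lin37 and Lin52 were not called (0.30 and -0.16 in control cells), nor was the other pocket protein gene Rbl2 (-0.42 in control cells).

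Most subunits of the anaphase promoting complex were not called. Of 14 subunits and regulators tested, 5 fell in each line and 0 rose, with medians of -0.47 and -0.45. Fbxo5, the interphase inhibitor of the complex also called EMI1, fell (log2 change -4.75 and -4.80), and so did the subunits Anapc5 (-1.23 and -1.16), Cdc16 (-1.08 and -1.05) and Cdc23 (-1.10 and -1.22). Of the subunits not called, Anapc1 (-0.73, adjusted p = 4e-04), Anapc7 (-0.59, adjusted p = 0.0022) and Anapc11 (-0.34, adjusted p = 0.0061) were lower in control cells by less than 2-fold. In control cells Anapc2, Anapc4, Anapc13 and Cdc26 gave 0.02, -0.02, 0.07 and 0.09, and Cdc27 gave -0.22 (adjusted p = 0.47).

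Of 12 other checkpoint and kinetochore genes, 7 fell in control cells and 8 in the line labelled knockdown, and 0 rose (medians -2.10 and -2.47). Trip13, the ATPase that remodels MAD2, fell (log2 change -3.92 and -4.66), with Zwilch (-4.48 and -5.30) and the MIS12 complex subunits Nsl1 (-4.59 and -4.97) and Dsn1 (-2.98 and -3.27). Mis12 itself gave -0.29 and -0.57 and was not called. Of 10 genes of the CDK1 brake and phosphatase list, 5 fell in each line and 0 rose (medians -1.32 and -1.33), among them the CDK1 inhibitor kinase Pkmyt1 (-3.36 and -3.74) and the CDK adaptors Cks1b (-2.29 and -2.63) and Cks2 (-2.05 and -2.21). Of 7 cytokinesis genes, 3 fell and 1 rose in each line (medians -0.12 and -0.16). Racgap1 (-3.19 and -3.30), Cep55 (-3.14 and -2.85) and Arhgef39 (-4.25 and -4.05) fell, and Sept9, a septin, rose (1.29 and 1.55).

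The comparison of the lines at each time asked whether the label of the hairpin went with a difference in these genes. At 0 h, 0 members were called at 2-fold in either direction, where 0.328% of all genes were called higher and 1.37% lower. Without a minimum fold, 7 members were higher at adjusted p under 0.05, against 6.01% of all genes, and 0 were lower, against 7.57%. The 7 were Cdc25a (0.41 ± 0.05 SE, adjusted p = 0.01), Anln (0.33), Cdc20 (0.33), Mki67 (0.32), Ect2 (0.30), Mad2l1 (0.29) and Spc24 (0.27), with adjusted p from 0.01 to 0.043. In all, 35 of 41 members were above 0, 30 of them on both slides, and the median was 0.14 against 0.005 for all genes. The share of all genes above 0 was not counted. Leaving out any 1 of the 8 arrays left 0 or 1 member past the threshold.

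At 24 h the members leaned the other way. Again 0 were called at 2-fold, where 1.04% of all genes were called higher and 0.997% lower. At adjusted p under 0.05, 5 members were lower in the line labelled knockdown, against 6.3% of all genes, namely Cdc25b (-0.67 ± 0.06 SE, adjusted p = 0.0046), Bub1 (-0.54 ± 0.06, adjusted p = 0.0075), Ccna2 (-0.51 ± 0.06, adjusted p = 0.0062), Mki67 (-0.47 ± 0.07, adjusted p = 0.015) and Nusap1 (-0.45 ± 0.07, adjusted p = 0.017). Pttg1 was the 1 member higher (0.34 ± 0.06, adjusted p = 0.021), against 7.51%. In all, 31 of 41 were below 0, 28 of them on both slides, and the median was -0.18 against 0.05 for all genes. The share of all genes below 0 was not counted.

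With the slide as a block, 11 members were lower at 24 h (10.3% of all genes) and 3 higher (16.3%). The 3 were Pttg1, Foxm1 (0.49, adjusted p = 0.057 without and 0.017 with the block) and Spc25 (0.33, adjusted p = 0.088 and 0.041). Without 1 of the 4 arrays taken at 24 h, the 5 lower members became 1 to 3 and Pttg1 was no longer past the threshold. Leaving out control array 1 gave 1, control array 2 gave 3, knockdown array 1 gave 3 and knockdown array 2 gave 2.

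Both tendencies add up in the difference between the inductions, which uses the same 8 arrays as the comparisons above and is no independent evidence. Of the 41 members, 26 were above control at 0 h and below it at 24 h. No share over all genes was counted for this pattern or for the sign of the difference. None was called at 2-fold (0 of 41; 2.35% of all genes higher and 1.46% lower). At adjusted p under 0.05, 12 had a larger fall in the line labelled knockdown, against 6.96% of all genes, and 1 a smaller fall, against 9.3%. The largest differences were those of Cdc25b and Mki67 (both -0.79, adjusted p = 0.0085 and 0.011), and the smaller fall was that of Pttg1 (0.35 ± 0.08 SE, adjusted p = 0.044). With the slide as a block the counts were 18 (11.8% of all genes) and 2 (18.1%). The median was -0.34 against 0.05 for all genes, and 35 members were below 0. Leaving out any 1 array left 2 to 5 members with a larger fall and 0 with a smaller one.

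Where a member that differed between the lines had further kept probes, these had the same sign in that comparison but mostly did not pass the test. The other Mki67 probe gave -0.53 for the difference between the inductions (adjusted p = 0.033), and those of Birc5 gave -0.63 (adjusted p = 0.044) and -0.33 (adjusted p = 0.7). The other Mad2l1 probes gave 0.62 and 0.73 at 0 h, and the other Pttg1 probe 0.54 at 24 h (adjusted p = 0.42). Several members of different roles had line differences near 0 at both times: Ccnb1 (0.04 with an interval of -0.14 to 0.22 at 0 h and -0.11 with -0.29 to 0.07 at 24 h), Bub3 (0.05 with -0.15 to 0.25, and 0.005 with -0.20 to 0.21) and Aurka (-0.03 with -0.17 to 0.10, and -0.12 with -0.26 to 0.01). Fzr1 gave -0.02 at both times, with an interval of -0.21 to 0.16 at 0 h.

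**Figure D4:**
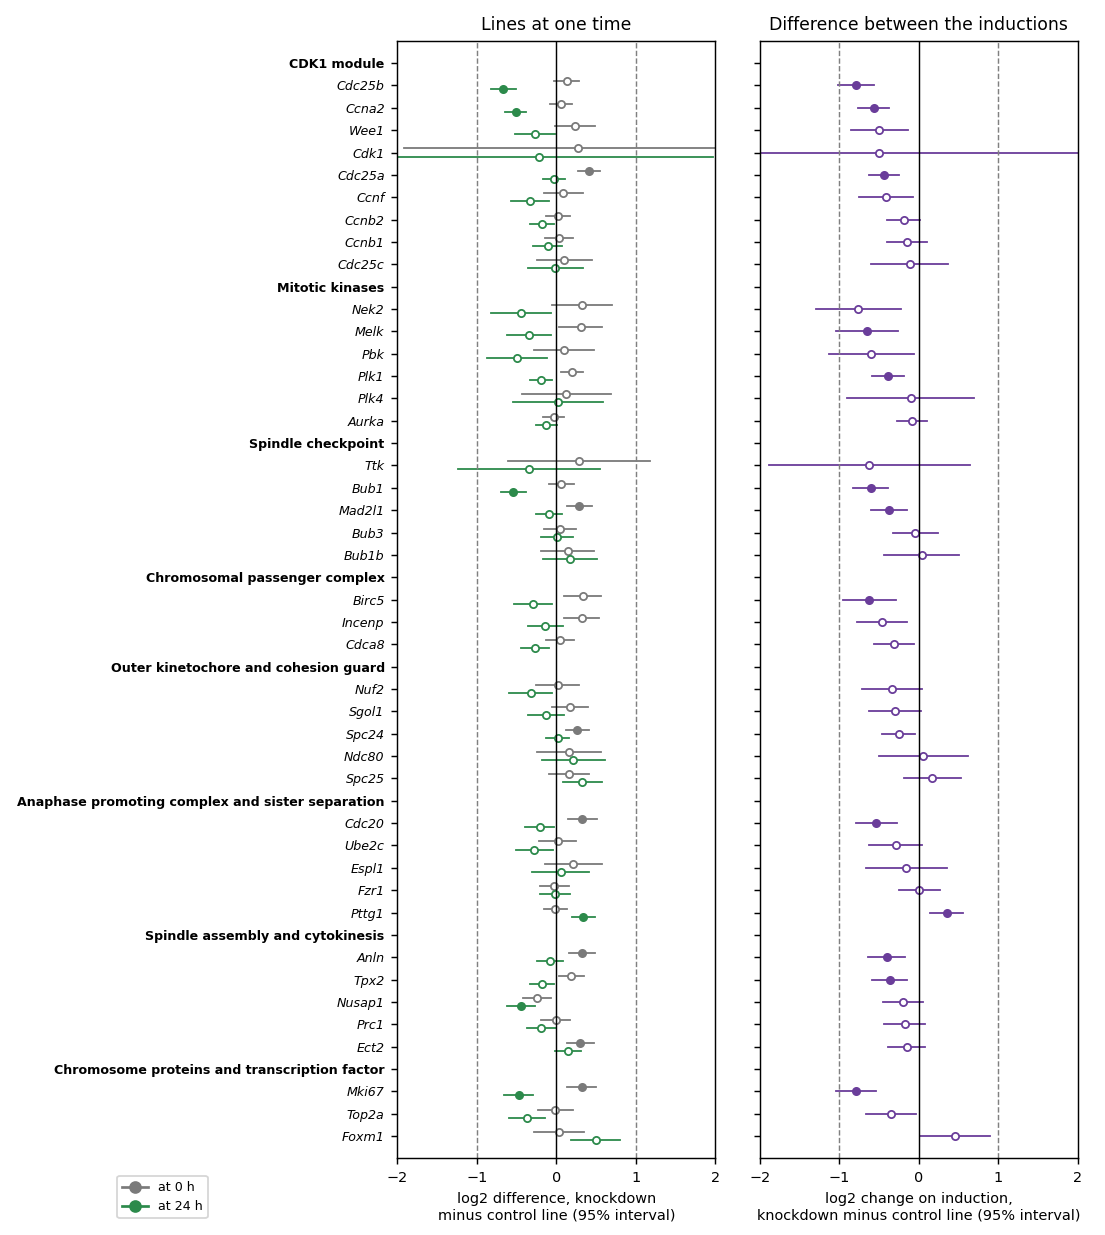
Left, log2 difference of the line labelled Tet2 knockdown from the control line at 0 h and at 24 h, and right, the difference between the lines' changes on induction (x axes, with 95% intervals; filled points have an adjusted p under 0.05; dashed lines mark 2-fold), for the 41 members tested (y axis, by role). Most points at 0 h lie right of 0 and most at 24 h left of it, none beyond 2-fold, and the intervals of Cdk1 run past the axes.

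Under scaling to the array median in place of the 75th percentile, the median of all genes shifted to -0.11 in both inductions, and none of the line differences of the members passed an adjusted p of 0.05. The share of lower genes among all calls moved from 47.9% to 60.9% in the induced line labelled knockdown and from 38.3% to 51.4% in the difference between the inductions. The 39 members called lower in each induction remained 39 in number.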

How the data were processed

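Per the labels, total RNA was amplified with oligo-dT-T7 priming and labelled with Cy3. Per the file headers, the 1-colour Agilent arrays (design 026655, annotated on mm9) were extracted by the protocol GE1_107_Sep09 in Feature Extraction version 10.7.3.1. Spot intensity in the deposited scanner files is already background-subtracted. The authors also deposited a table of log2 values, with a median of 6.844 on every array, and the submitters' processing notes name limma. That table was matched by normexp correction with offset 50 and quantile normalization, a step no source states.

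Log2 processed signal minus log2 of the array's 75th percentile was computed from non-control spots after outlier spots (155 to 219 per array) were left out, and 0 spots were saturated. Probes had to be well above background on both duplicates in 1 or more groups (20306 of 39429 probes), and where a gene had several such probes the one with the highest mean was used. One model with 4 group means was fitted to the 8 arrays in limma (version 3.58.1; R version 4.3.3; data.table package, version 1.17.8), with 4 residual and 1.51 prior degrees of freedom. Tests were 2-sided. Each ± is a standard error from this model, with n = 2 arrays in each group.

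Replicate number, slide and scan coincided per the file headers, so same-numbered arrays were paired by slide. Deviations of arrays on the same slide correlated between groups with r from 0.30 to 0.41. The members, role groups, gene lists, markers and motifs were chosen with earlier results of these data known, and any member could be named. Per-array values are given for the largest and smallest measured or bounded changes in each role group, for members not called and for those that differed between the lines. Aurkb was left out of the tests because its probe did not pass the filter.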

Additional observations from a re-analysis of the deposited data

Results flagged for a closer look

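Of the members, 13 changed differently on induction in the 2 lines by the interaction test (limma, adjusted p under 0.05, no minimum fold), each a log2 change in the line labelled knockdown minus that in the control line. Over all genes, 6.96% passed this test with a lower and 9.3% with a higher value. With median scaling or with no filter on dim probes, 0 of the members passed. For the CDK1 module these were Cdc25b with -0.79 ± 0.09 SE (adjusted p = 0.0085), Ccna2 with -0.57 ± 0.08 (adjusted p = 0.013) and Cdc25a with -0.44 ± 0.08 (adjusted p = 0.021). Among kinases they were Melk with -0.65 ± 0.15 (adjusted p = 0.044) and Plk1 with -0.39 ± 0.08 (adjusted p = 0.031). In the checkpoint and passenger groups they were Birc5 with -0.62 ± 0.13 (adjusted p = 0.035), Bub1 with -0.60 ± 0.09 (adjusted p = 0.014) and Mad2l1 with -0.38 ± 0.09 (adjusted p = 0.045).

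The remaining larger falls were those of Mki67 with -0.79 ± 0.10 (adjusted p = 0.011), Cdc20 with -0.53 ± 0.10 (adjusted p = 0.026), Anln with -0.41 ± 0.09 (adjusted p = 0.04) and Tpx2 with -0.37 ± 0.09 (adjusted p = 0.045). Pttg1 had the smaller fall, 0.35 ± 0.08 (adjusted p = 0.044). Over 17 alternatives each, Cdc25b and Mki67 kept an adjusted p under 0.05 in 15, Ccna2 in 11, Bub1 in 10, Anln and Cdc25a in 5 and Pttg1 in 4. The highest adjusted p was 0.25 for Cdc25b, 0.28 for Mki67 and 0.82 for Pttg1.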

How the results depend on the processing

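Of 3788 values for single members under the alternatives, 0 called values reversed, 3 lost a call (Cdk1 in the control induction) and 4 gained one (Bub3 and Fzr1 with no minimum fold). Of 2238 values that were not called, 89 had the opposite sign. The median of the control induction was -3.52 with normexp, -3.99 with median scaling, -3.55 in the authors' value table, -3.96 as the mean over kept probes and -4.00 to -3.85 with 1 array left out. That of the other line was -3.72, -4.49 and -3.80 under the first 3 of these, and -4.24 to -4.16 with 1 array left out. With normexp the 24 h median was -0.06 and that of the difference between the inductions -0.22, which was -0.48 with median scaling. The size of single falls to low 24 h levels also depended on the background correction. With normexp the control change was -3.45 in place of -4.36 for Nek2, -4.05 in place of -4.92 for Melk and -3.49 in place of -4.22 for Wee1.

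Counts at adjusted p under 0.05 without a minimum fold moved most. The 7 members higher at 0 h became 0 with normexp, median scaling, no filter on dim probes or only the groups compared, and 0 to 1 with 1 array left out. The 5 lower at 24 h became 2 with normexp, 0 with median scaling or no filter, 3 with only the groups compared, 11 with the slide as a replicate block and 1 to 5 with 1 array left out. The 1 higher became 3 with normexp or the block, 2 with detection required on all 8 arrays (36 members tested), 0 with the authors' table, the probe mean, median scaling, no filter or only the groups compared, and 0 to 1 with 1 array left out. For the difference between the inductions, the 12 became 4 with normexp, 6 in the authors' table, 0 with median scaling or no filter and 2 to 5 with 1 array left out. The 1 became 2 with the replicate block and 0 with the other settings named for the 12, with the probe mean or with 1 array left out. Without a filter, 42 members were tested. The cause of these moves was not tested. The replicate block changed no other count of members by over 1.5 times. With the bases before the start alone, 36.4% of members had a CHR in place of 66.7%, and 19.6% of all genes in place of 21.7%.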
